A study of Mus musculus with 6 samples.

Results

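The 10 genes described here are markers of astrocytes, followed through the nuclear RNA of mouse neural precursor cells. They were taken by gene symbol, and 10 of 10 were found among 23337 gene rows. By the place of their products they were 3 secreted proteins (Agt, Clu and Apoe), 4 surface or membrane proteins (Cd44, Gja1, Slc1a2 and Aqp4) and 3 intracellular proteins (Gfap, Aldh1l1 and S100b). The cells came from the E13.5 dorsal forebrain and were used at passage 6 to 7, in medium with EGF and basic FGF at 20 ng/ml each. Genotypes were Fmr1 wild type (WT lines 3, 8 and 19) and Fmr1 knockout (KO lines 3, 13 and 16), and the design text calls the lines of a genotype independent. The knockout allele, the mouse strain and whether a line came from 1 embryo are not stated in what was used here. RNA was taken from nuclei alone, so a value is a gene's share of nuclear RNA and not its whole-cell level.

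Astrocytes are the glia that take up glutamate and potassium, supply lipids and couple to one another through gap junctions. In the developing forebrain they arise from the same radial precursors that first make neurons, after a switch to glial fates. Several of their markers, such as Clu, Apoe, Slc1a2 and Aldh1l1, can already be transcribed at lower levels in radial precursors, while Gfap and Aqp4 are usually taken as signs of later astrocytes. Gfap and Cd44 are also known to rise in astrocytes that react to injury or to cytokines of the IL-6 family.

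Total counts ran from 18702738 to 26789522 per library, so that 1 count was worth 0.0373 to 0.0535 CPM, the unit in which every library is brought to the same total. Levels below are CPM on the scale of the trimmed mean of M values (TMM), given as mean ± SD of 3 lines, unless a length is named. A gene is said to have risen or fallen where edgeR's quasi-likelihood test gave an adjusted p (Benjamini-Hochberg, over 13925 tested genes) under 0.05. The knocked-out gene did not follow its label throughout. Fmr1 was at 223, 270 and 274 CPM in WT lines 3, 8 and 19 and at 371, 188 and 153 CPM in KO lines 3, 13 and 16, so the library labelled KO line 3 lay above WT, and every direction given here rests on the labels. Without KO line 3, Fmr1 was lower in the libraries labelled KO (log2 fold change -0.58, edgeR adjusted p = 0.00152, in a range of 0.00152 to 0.936 over its alternatives), against -0.10 (adjusted p = 0.795) over all 6 libraries. KO lines 3, 13 and 16 stand throughout for the libraries so labelled. WT line 19 and KO line 3 also differed most from the other libraries of their genotype, the chi-square of their counts over its degrees of freedom being 61.3 to 62.8 and 72.6 to 91.5, against 10.8 and 16.4 for the remaining pairs. The cultures carried the RNA of neural precursors: Nes was at 1786 to 2869 CPM, Sox2 at 98.1 to 146 CPM and Pax6 at 29.2 to 38.8 CPM over the 6 libraries. None of these 3 genes passed the test. Of the 14 radial glia and neural stem cell markers that include them, 3 fell and 1 rose (20.4% and 21.8% of all tested genes).

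Of the 10 marker genes, 7 fell in the libraries labelled KO and 3 did not pass. Over all tested genes 20.4% fell, 21.8% rose and 42.3% passed in either direction. The 10 genes were chosen with earlier results of these data known, so the shares over all genes are a background and not a test of the set. In 7 of the 10 genes, the same 7, every library labelled KO lay below every WT library, which held for 25.7% of tested genes. Without WT line 19 and KO line 3, the same 7 genes passed as lower, in a fit where 28.3% of 14077 tested genes fell and 25.9% rose. Xist, the RNA that coats a silenced X, reached 1.67 to 81.8 CPM in 3 libraries (WT line 19, KO lines 13 and 16). In the others it was at 15470 to 20510 CPM. WT line 19 and KO line 3, which differed most within their genotypes, were thus each apart in Xist from the other lines of their genotype. The part of Xist and of Y-linked genes in that difference was not tested. With Y-linked expression as a covariate the same 7 genes fell along with Slc1a2. The median log2 fold change was -1.39 over the 10 genes and 0.0103 over all tested genes. The 10 genes summed to 628 to 982 CPM of library total in WT and to 196 to 261 CPM in the libraries labelled KO. In bulk RNA, fewer cells that express a gene and less RNA per cell cannot be told apart. All 10 passed the filter on low counts, but Agt passed through WT alone, with 0 of 3 libraries labelled KO over the filter's cutoff of 0.469 CPM, so that its difference was part of how it came to be tested.

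**Figure D1:**
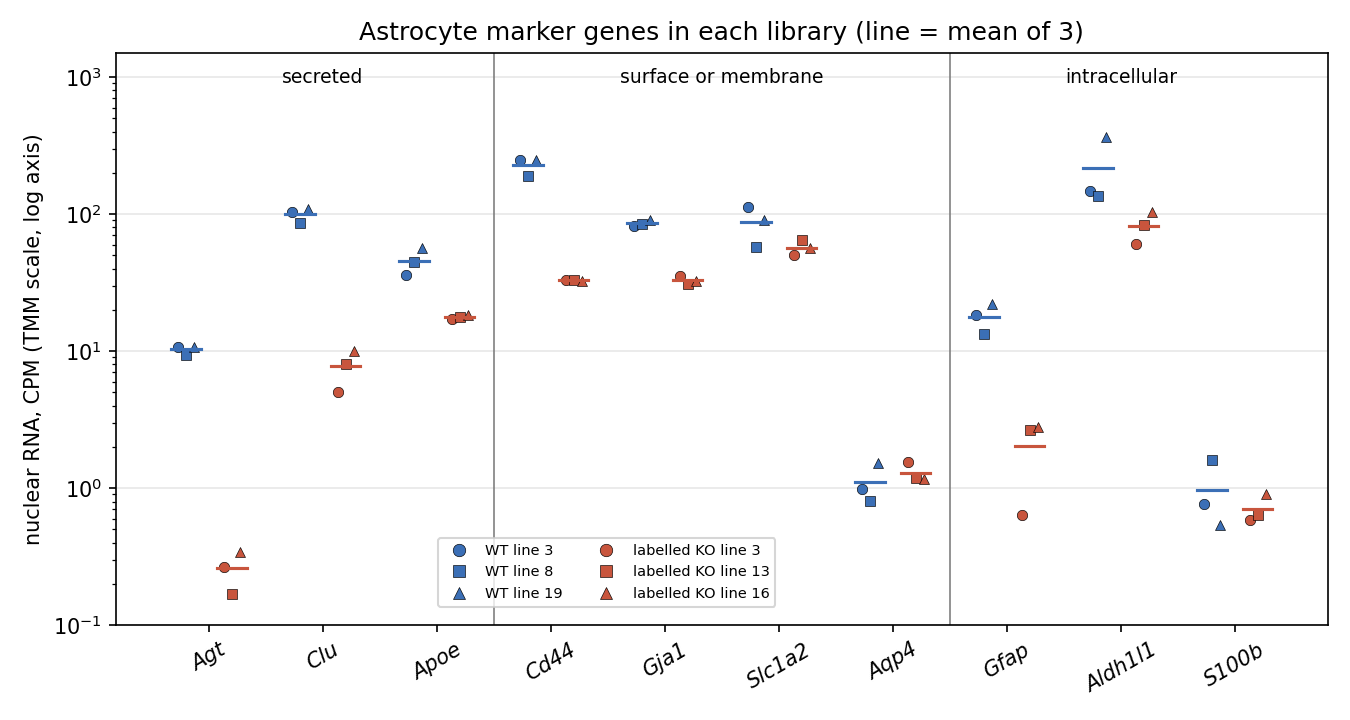
Each point is the level of 1 gene in 1 library, in CPM on a log axis, and each short line is the mean of 3 lines. The 3 libraries labelled KO lie below the 3 WT libraries for Agt, Clu, Apoe, Cd44, Gja1, Gfap and Aldh1l1, and the ranges of the groups overlap for Slc1a2, Aqp4 and S100b.

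The 250 bases before the start of transcription are shown for Agt, Cd44 and Gja1, 3 genes that fell and differed in the short motifs they hold. They are not a sample of the 10 genes: the only STAT and the only AP-1 match among the member windows are in those shown. Apoe, Gfap and Aldh1l1 also fell and had windows, which are not shown. The windows are from RefSeq on GRCm38.p6, read 5′ to 3′ on the strand of the gene. The Agt window is chr8:124569707-124569956 on the minus strand, the Cd44 window chr2:102901666-102901915 on the minus strand and the Gja1 window chr10:56377050-56377299 on the plus strand. Capitals mark matches, on either strand, to a STAT motif (TTCNNNGAA), an AP-1 motif (TGANTCA), an NFI motif (TTGGC), a GC box (GGGCGG) or a TATA box (TATAAA).
Agt: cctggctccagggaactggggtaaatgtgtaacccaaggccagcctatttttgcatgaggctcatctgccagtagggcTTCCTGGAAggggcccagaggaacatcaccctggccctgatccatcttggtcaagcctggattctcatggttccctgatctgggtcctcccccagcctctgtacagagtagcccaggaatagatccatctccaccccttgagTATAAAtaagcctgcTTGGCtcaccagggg
Cd44: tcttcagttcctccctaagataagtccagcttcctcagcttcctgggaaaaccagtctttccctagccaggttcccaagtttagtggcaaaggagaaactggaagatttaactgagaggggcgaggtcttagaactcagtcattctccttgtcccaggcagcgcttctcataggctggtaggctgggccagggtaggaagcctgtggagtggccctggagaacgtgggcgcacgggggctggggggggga
Gja1: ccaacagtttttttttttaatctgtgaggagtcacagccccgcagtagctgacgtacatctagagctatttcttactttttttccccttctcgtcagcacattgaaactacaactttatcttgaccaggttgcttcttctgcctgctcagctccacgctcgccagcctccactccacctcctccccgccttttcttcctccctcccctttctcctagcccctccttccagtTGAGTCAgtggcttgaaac
The Agt window held a STAT match 172 bases before the start, a TATA box 30 bases before it and an NFI motif 15 bases before it. The Gja1 window held an AP-1 match 19 bases before the start, and the Cd44 window held none of the 5 motifs.

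RefSeq gave a window for 8 of the 10 genes, 10 windows in all because Apoe had 3 starts. A STAT match stood in 1 of the 10 windows, against 7.02% of 32851 windows of the same length over all genes. An AP-1 match stood in 1 (6.75% of all windows), an NFI motif in 5 (41.5%), a GC box in 1 (32.7%) and a TATA box in 2 (12.4%). A cyclic AMP response element (TGACGTCA) stood in 0 (1.55%) and an E-box (CANNTG) in 6 (66.2%). An NF-kappaB motif of 3 G, 5 free bases and 2 C stood in 5 (45.8%). These are letters in a short window and not sites shown to be bound, and longer range elements were not searched.

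Of the secreted proteins, all 3 fell. Agt encodes angiotensinogen, the precursor of angiotensin, which astrocytes supply in the brain (chromosome 8, 124556534 to 124569706 in GRCm38, minus strand, 5 exon blocks). It was at 10.8, 9.37 and 10.7 CPM in WT lines 3, 8 and 19 and at 0.267, 0.169 and 0.343 CPM in KO lines 3, 13 and 16, from 5, 4 and 8 counts. The WT lines lay close together and the libraries labelled KO were near the limit of detection. Agt was 38.9-fold lower (95% interval 26.3 to 57.6, log2 fold change -5.28, SE 0.25, edgeR adjusted p = 5.6e-06), the 7th lowest log2 fold change of all tested genes. Because Agt passed the filter through WT alone, its p-value and its rank are not independent of the difference they describe.

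Clu encodes clusterin, a secreted chaperone and lipid carrier (chromosome 14, 65968483 to 65981547, plus strand). Its levels were 104, 85.7 and 110 CPM in WT lines 3, 8 and 19 and 5.08, 8.12 and 10 CPM in KO lines 3, 13 and 16. The groups stood far apart, and KO line 3 was the lowest library. Clu was 12.8-fold lower (95% interval 8.90 to 18.4, log2 fold change -3.68, SE 0.23, edgeR adjusted p = 2.03e-05). Apoe, the main lipid-carrying apolipoprotein of the brain (chromosome 7, 19696109 to 19699188, minus strand), fell less. It was at 35.9, 44.4 and 56.5 CPM in WT and at 17.2, 17.8 and 18.4 CPM in the libraries labelled KO, in the same line order. The libraries labelled KO varied by 3.42% (coefficient of variation) and the WT lines by 22.7%. The fold was 2.56 (95% interval 1.98 to 3.32, log2 fold change -1.36, SE 0.16, edgeR adjusted p = 0.000335).

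Of the surface and membrane proteins, Cd44 and Gja1 fell. Cd44 encodes the receptor for hyaluronan (chromosome 2, 102811141 to 102901665, minus strand). It measured 247, 190 and 248 CPM in WT lines 3, 8 and 19, and 33.1, 33.3 and 32.3 CPM in KO lines 3, 13 and 16. The 3 libraries labelled KO were nearly equal, with a coefficient of variation of 1.55%, whereas WT lines varied by 14.6%. Cd44 was 6.93-fold lower (95% interval 5.63 to 8.53, log2 fold change -2.79, SE 0.13, edgeR adjusted p = 5.6e-06). Gja1 encodes connexin 43, the chief gap junction protein of astrocytes and also of radial precursors (chromosome 10, 56377330 to 56402513, plus strand). Its levels were 82.5, 84.5 and 90.7 CPM in WT and 35.2, 30.9 and 32.4 CPM in the libraries labelled KO. It varied by no more than 6.73% within either genotype, so that a 2.62-fold difference (95% interval 2.22 to 3.09) had a small error (log2 fold change -1.39, SE 0.11, edgeR adjusted p = 3.68e-05).

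The other two membrane proteins did not pass. Slc1a2 encodes GLT-1, the glutamate transporter of mature astrocytes. It was at 113, 57.5 and 91.2 CPM in WT lines 3, 8 and 19 and at 50.1, 64.4 and 56.2 CPM in KO lines 3, 13 and 16. WT line 8 lay among the libraries labelled KO. The log2 fold change of -0.62 (SE 0.22, 95% interval -1.12 to -0.11) fell just short of the threshold (edgeR adjusted p = 0.0507), and it passed without WT line 8 (-0.85, adjusted p = 0.00659). Over its alternatives the adjusted p ran from 0.00659 to 0.409. Slc1a2 and Cd44 are next to each other among the 10 genes on chromosome 2, with 20356 bases between them, and their 95% intervals did not overlap. Aqp4, the water channel of astrocyte endfeet, was low throughout, at 0.988, 0.811 and 1.52 CPM in WT and 1.55, 1.18 and 1.16 CPM in the libraries labelled KO, from 16 to 29 counts per library. Its log2 fold change was 0.23 (SE 0.30, 95% interval -0.45 to 0.91, edgeR adjusted p = 0.559).

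Of the intracellular proteins, Gfap and Aldh1l1 fell. Gfap encodes the intermediate filament protein that defines astrocytes in most stains (chromosome 11, 102887336 to 102900912, minus strand). It was at 18.3, 13.4 and 22.0 CPM in WT lines 3, 8 and 19 and at 0.641, 2.66 and 2.79 CPM in KO lines 3, 13 and 16. KO line 3 held 12 counts, fewer than KO lines 13 and 16 with 63 and 65. Gfap was 8.59-fold lower (95% interval 4.61 to 16, log2 fold change -3.10, SE 0.40, edgeR adjusted p = 0.000441). Without KO line 3 the direction and the call were as before.

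Aldh1l1 encodes a folate enzyme that marks astrocytes and radial precursors (chromosome 6, 90486427 to 90600203, plus strand). Its levels were 147, 136 and 366 CPM in WT lines 3, 8 and 19 and 60.7, 82.8 and 104 CPM in KO lines 3, 13 and 16. WT line 19 stood well above every other library. The log2 fold change was -1.39 (SE 0.37, edgeR adjusted p = 0.0149), but it shrank to -0.78 (adjusted p = 0.0228) without WT line 19 and its call was lost without KO line 3 (-1.21, adjusted p = 0.202). Without both libraries it was -0.60 (adjusted p = 0.000397), and these were the lowest and highest adjusted p over its alternatives. The exons of Aldh1l1 overlap those of 2 predicted genes over 604 bases, neither of them listed in the files. S100b, a calcium-binding protein, did not pass: it was at 0.768, 1.62 and 0.542 CPM in WT and 0.588, 0.634 and 0.901 CPM in the libraries labelled KO, from 10 to 32 counts. The groups overlapped, and the log2 fold change of -0.44 (SE 0.43, 95% interval -1.41 to 0.52, edgeR adjusted p = 0.432) turned to 0.09 without WT line 8.

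**Figure D2:**
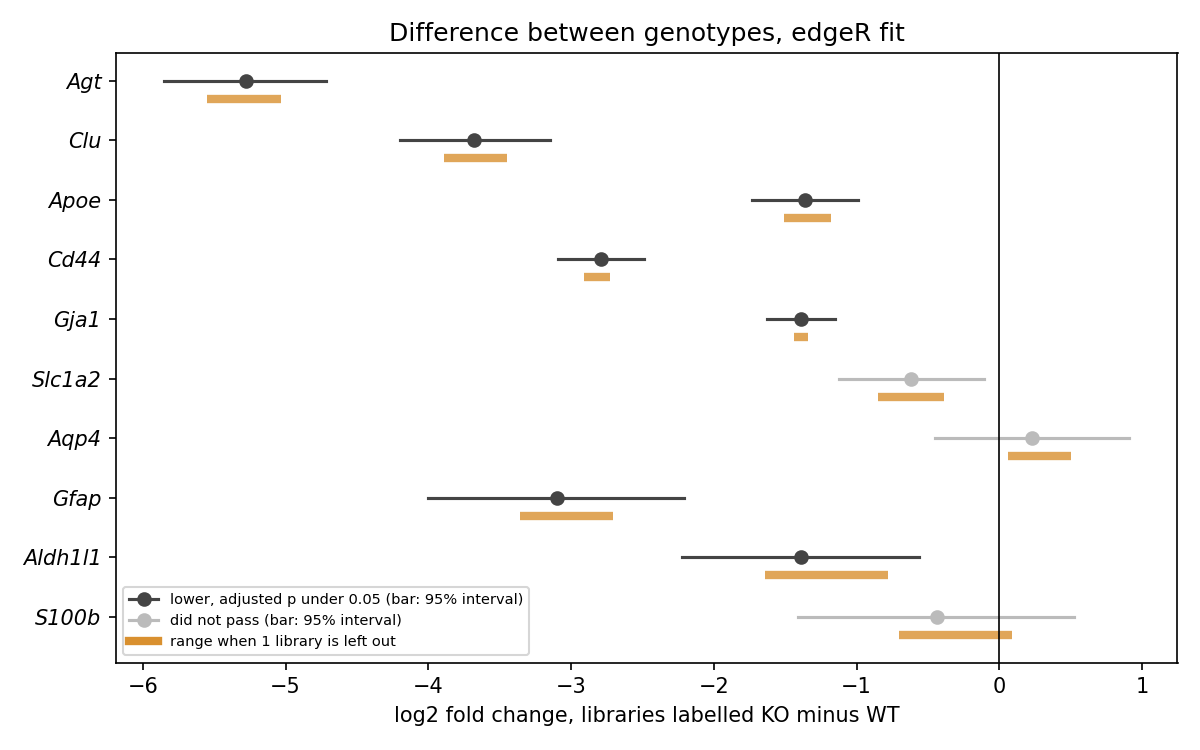
Points are log2 fold changes of libraries labelled KO against WT, thin bars their 95% intervals, and thick bars the range when 1 library is left out. Agt, Clu, Gfap and Cd44 lie furthest from 0, at -5.28, -3.68, -3.10 and -2.79, while the left-out ranges of Aldh1l1 (-1.64 to -0.78) and Slc1a2 (-0.85 to -0.39) are wide for their size.

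Within a genotype, some lines were the lowest or the highest in more of the 10 genes than others. KO line 3 was the lowest of the libraries labelled KO in 6 of the 10 genes, while it was the lowest of the 3 in 39.2% of all tested genes. KO line 16 was the highest in 6 of the 10 (34.7% of tested genes). Among WT, line 8 was the lowest in 7 of the 10 (36.4%) and line 19 the highest in 7 of the 10 (37.1%). Since these counts come from few genes in the same libraries, they describe the libraries and were not tested.

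Levels of different genes were set side by side per kb of summed exon length. In WT, Aldh1l1 stood first at 47.9 ± 28.7 CPM per kb, followed by Cd44 (33.6 ± 4.91), Clu (29.0 ± 3.63) and Apoe (21.3 ± 4.84). The ranges of neighbours among these 4 overlapped. Gja1 came next at 8.37 ± 0.416 CPM per kb, apart from Apoe but overlapping Slc1a2 (6.64 ± 2.13), and then Agt (5.45 ± 0.425) and Gfap (4.25 ± 1.02), again with overlapping neighbours. S100b (0.659 ± 0.383) and Aqp4 (0.177 ± 0.0591) were the lowest. Over 12556 tested genes with a length the median WT level was 7.12 CPM per kb, so Aldh1l1 was above 95% of them and Aqp4 above 3.90%.

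In the libraries labelled KO, Aldh1l1 was still first at 18.2 ± 4.76 CPM per kb and Apoe was second at 8.31 ± 0.284. Cd44 (4.85 ± 0.0753) overlapped Slc1a2 (4.33 ± 0.546), and Gja1 (3.20 ± 0.215) and Clu (2.25 ± 0.728) came next without overlap. Gfap (0.482 ± 0.286) and S100b (0.477 ± 0.114) overlapped. Agt moved from 7th to last, at 0.137 ± 0.0462 CPM per kb, below Aqp4 at 0.208 ± 0.0351. By level per kb, Clu passed from above 88.1% of tested genes in WT to above 27.6%, Cd44 from 90.5% to 41.6%, and Agt from 43.2% to 2.91%.

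**Figure D3:**
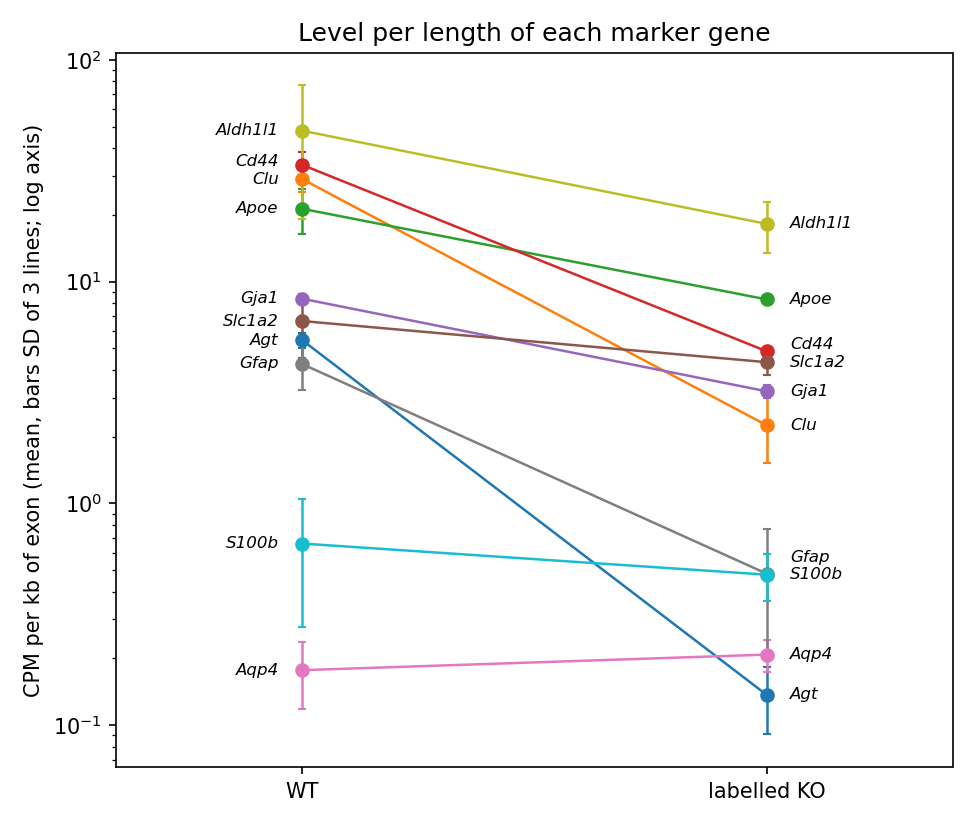
Points are mean levels in CPM per kb of exon on a log axis in WT (left) and in libraries labelled KO (right), with bars for the SD of 3 lines. The lines for Agt, Clu, Cd44 and Gfap cross those of other genes on the way down, while Aqp4 and S100b stay near the bottom on both sides.

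A wider set of 36 other astrocyte markers moved in both directions. Of 34 tested, 15 fell, 5 rose and 14 did not pass (median log2 fold change -0.35). For this and every list below, the shares over all tested genes were 20.4% lower and 21.8% higher. Of the 15, 1, like Agt, passed the filter through WT alone. Kcnj10, the potassium channel Kir4.1, had the smallest p of those that fell: it was at 543, 371 and 724 CPM in WT lines 3, 8 and 19 and at 30.6, 55.6 and 58.7 CPM in KO lines 3, 13 and 16 (log2 fold change -3.50, SE 0.31). Sparc, a secreted matrix protein, fell from 1026 ± 128 to 272 ± 59.6 CPM. The 5 markers that rose were Slc6a11, a GABA transporter (log2 fold change 1.52, SE 0.16), Fgfr3, a growth factor receptor (1.44, SE 0.24), Glul, glutamine synthetase (0.97, SE 0.12), Acsl6, a fatty acid ligase (0.89, SE 0.14), and Id3, a regulator of transcription (0.33, SE 0.11). The call of Id3 was lost when any library but KO line 3 was left out.

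Genes known from reactive astrocytes were taken in 3 lists. Of 13 genes common to reactive astrocytes, 10 were tested, 9 fell and 1 did not pass, with a median log2 fold change of -1.88. They included Gfap and Cd44 from the 10 markers, and 2 of the 9 passed the filter through WT alone. Osmr, the receptor of oncostatin M, a cytokine of the IL-6 family, was at 18, 14.7 and 22.2 CPM in WT and 1.98, 1.35 and 1.07 CPM in the libraries labelled KO (log2 fold change -3.66, SE 0.25). Of 12 genes of the class known as A1, 7 were tested: Gbp2 (log2 fold change -1.72), Ggta1 (-1.41) and Amigo2 (-1.05) fell and H2-D1 rose (0.60). Of 12 of the class known as A2, 11 were tested, 5 fell and 6 did not pass. Tm4sf1 (-3.08), Cd109 (-1.78), Ptx3 (-1.55), Clcf1 (-1.28) and Sphk1 (-1.20) fell. Ptx3 passed the filter through WT alone, and the calls of Ptx3 and Sphk1 were each lost without WT line 19 or without KO line 13.

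Regulators of the switch to glia moved in both directions. Of 30 tested, 7 fell, 4 rose and 19 did not pass, with a median log2 fold change of -0.08, beside shares of 20.4% lower and 21.8% higher over all tested genes. Without WT line 19 and KO line 3, 10 fell and 6 rose, where the shares over all genes were 28.3% and 25.9%. Socs3, the feedback inhibitor of JAK-STAT signalling, fell from 25.9 ± 8.24 to 8.53 ± 1 CPM, and Smad1, which carries BMP signals, from 62.8 ± 5.57 to 38.2 ± 3.73 CPM. Olig2 (log2 fold change 0.99), Bmpr1b, a BMP receptor (1.44), Lifr, the receptor of leukaemia inhibitory factor (1.05), and Id3 rose. Stat3 was at 308 ± 44.7 CPM in WT and 311 ± 19.5 CPM in the libraries labelled KO (log2 fold change 0.01, SE 0.13), and Sox9 (0.04, SE 0.12), Nfia (-0.07, SE 0.16), Nfib (0.01, SE 0.12) and Nfix (-0.05, SE 0.16) did not pass either. These 5 were named after their values were seen.

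**Figure D4:**
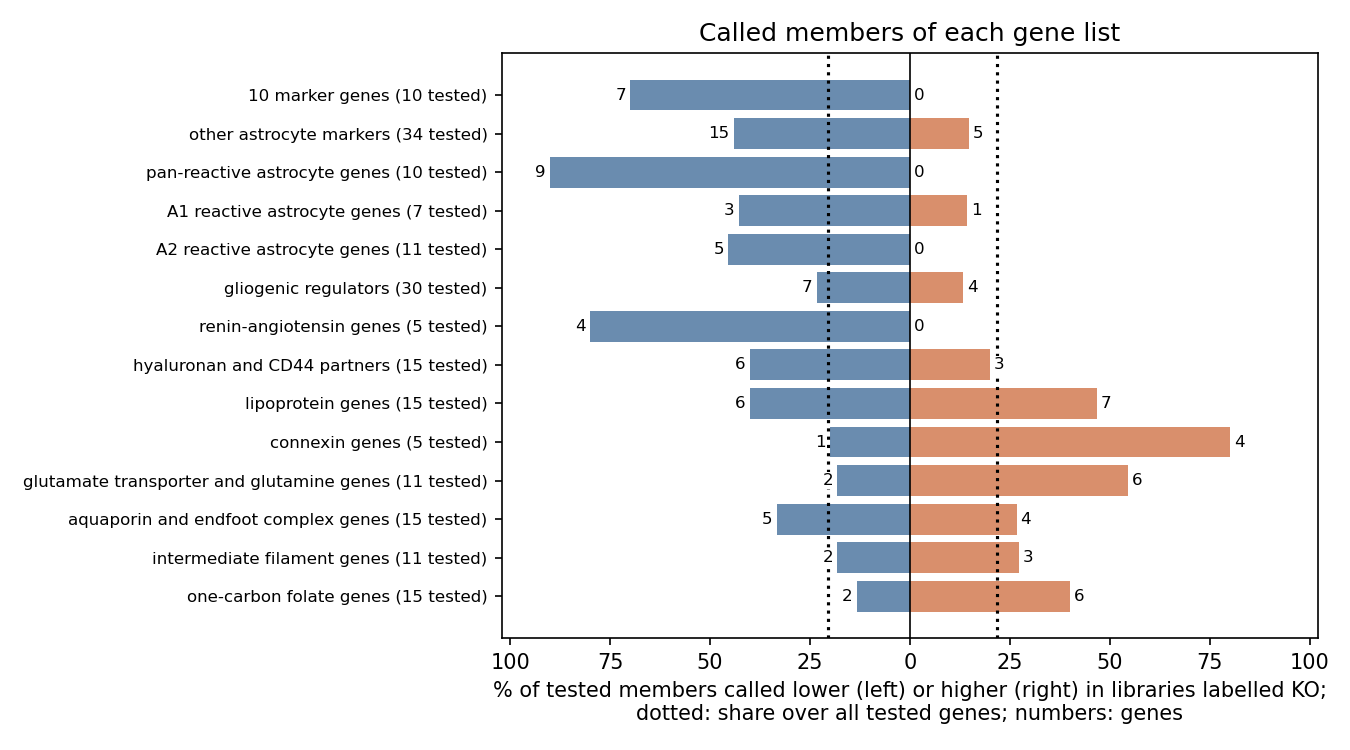
Bars give the share of tested genes of each list that fell (left) or rose (right) in libraries labelled KO, with the number of genes at the end of each bar and dotted lines at 20.4% and 21.8%, the shares over all tested genes. Lists share genes: Gfap and Cd44 are in the pan-reactive list, and Gja1, Slc1a2, Aqp4, Gfap and Aldh1l1 are each in the list of their own family.

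Around the secreted proteins, the list of renin-angiotensin genes held few that were expressed. Of 15, only 5 were tested, of which 4 fell and 1 did not pass. Ren1, the gene of the enzyme that cuts angiotensinogen, had 0 counts in all 6 libraries, and the receptors Agtr1a, Agtr1b and Agtr2 did not pass the filter. The 4 that fell were Ctsd, a lysosomal protease (361 ± 28.6 to 70.1 ± 13.8 CPM), Agtrap (log2 fold change -1.26), Atp6ap2 (-1.26) and Lnpep (-0.90), which all have roles outside this system. Partners of Apoe and Clu moved both ways: of 15 tested, 6 fell and 7 rose, beside 20.4% and 21.8% over all tested genes. Abca1, the transporter that loads lipid onto apolipoprotein E, fell from 169 ± 17.4 to 37.3 ± 1.56 CPM and so did the sorting receptor Sorl1 (log2 fold change -3.29, SE 0.27). Scarb1, a lipoprotein receptor, rose from 67.8 ± 2.80 to 120 ± 9.33 CPM and Lrp2 from 16 ± 4.5 to 45.2 ± 9.69 CPM.

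Among connexins and pannexins, Gja1 fell and others rose. Of 23 genes 5 were tested, and Gja1 fell while 4 rose. Without WT line 19 and KO line 3, 2 fell, Gja1 among them. Gjc1, which encodes connexin 45, was at 4.21, 4.91 and 6.94 CPM in WT lines 3, 8 and 19 and at 82.4, 74.7 and 65.2 CPM in KO lines 3, 13 and 16 (log2 fold change 3.80, SE 0.19). Per kb of exon, Gja1 stood at 8.37 ± 0.416 against 1.07 ± 0.284 CPM for Gjc1 in WT, and at 3.20 ± 0.215 against 14.8 ± 1.72 CPM in the libraries labelled KO, so the order of the pair was turned. Gja5 rose from 0.13 ± 0.0672 to 1.96 ± 0.162 CPM, Gjc3 from 0.446 ± 0.0967 to 4.6 ± 2.91 CPM and Panx1, a related channel, from 7.53 ± 0.695 to 14.7 ± 1.35 CPM. Gja5 passed the filter through the libraries labelled KO alone, and Gjc3 was over its cutoff in 1 of 3 WT libraries. Gjc3 was highest in KO line 3, at 7.96 CPM against 2.88 and 2.96 CPM in KO lines 13 and 16, and its log2 fold change was 3.34 with and 2.71 without that library. Gjb6, the gene of connexin 30 and the other main connexin of astrocytes, had no count in WT and did not pass the filter (named, like Ren1 and the angiotensin receptors, after the values were seen).

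The glutamate system did not move as 1 unit either. Of 11 tested genes, 6 rose, 1 of them tested through the libraries labelled KO alone, and 2 fell. Slc1a3, the transporter of radial precursors and young astrocytes, was the most abundant of the family per kb of exon, at 125 ± 5.56 CPM in WT and 97.8 ± 6.73 CPM in the libraries labelled KO. Its log2 fold change was -0.35 (SE 0.11), and the call was lost when any library but KO line 3 was left out. Slc1a1, the transporter known from neurons, rose from 1.11 ± 0.22 to 6.70 ± 1.16 CPM. Glul, which makes glutamine from glutamate, rose from 98.2 ± 9.37 to 192 ± 18.4 CPM.

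A list of aquaporins and of genes of the endfoot complex, Aqp4 among them, had 15 tested genes, of which 5 fell and 4 rose. Over all tested genes 20.4% fell and 21.8% rose. Beside Kcnj10, Mlc1 fell from 171 ± 7.73 to 101 ± 1.67 CPM, Hepacam from 21 ± 5.22 to 9.47 ± 1.49 CPM and Utrn, the gene of utrophin, from 144 ± 11.4 to 91.2 ± 14.2 CPM. Dag1 fell by 0.43 on the log2 scale, a call lost when any single library but WT line 3 or KO line 16 was left out. Agrn, the gene of agrin, rose from 462 ± 31.5 to 872 ± 29.8 CPM, and Dtna, Sntb1 and Trpv4 rose by log2 fold changes of 0.99, 1.16 and 1.44. Of 15 tested partners of Cd44 and hyaluronan, 6 fell and 3 rose (9 and 3 without WT line 19 and KO line 3, a fit in which more genes of all kinds fell). The hyaluronidase gene Hyal1 fell from 24.2 ± 1.02 to 6.42 ± 0.722 CPM and Spp1, the gene of the ligand osteopontin, from 22.0 ± 1.16 to 11.4 ± 1.94 CPM. Bcan, a hyaluronan-binding proteoglycan, rose from 433 ± 12.4 to 1025 ± 43.0 CPM, as did Ezr (log2 fold change 0.88) and Vcan (0.67, a call lost without WT line 19).

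**Figure D5:**
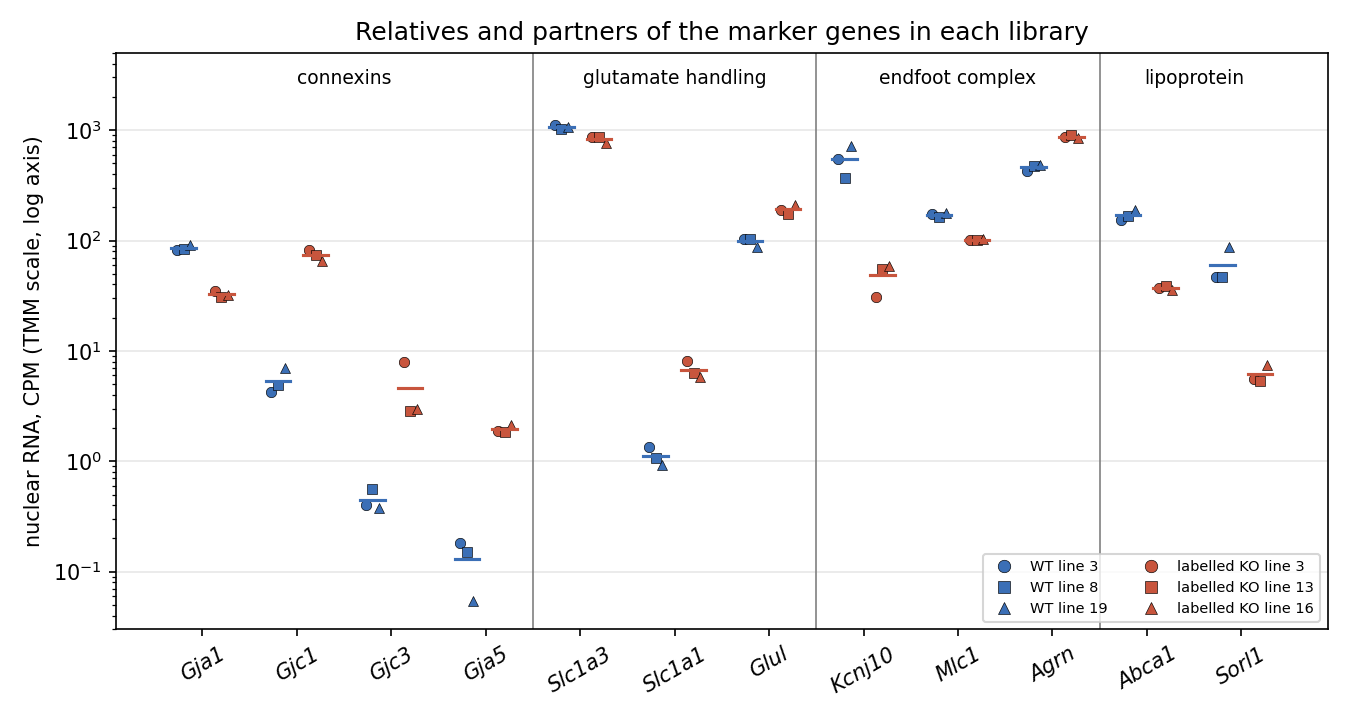
Points are levels in CPM on a log axis for relatives and partners of the marker genes in each library, with short lines for the means of 3 lines. Gjc1 lies below Gja1 in every WT library and above it in every library labelled KO, and Kcnj10 falls from 371 to 724 CPM in WT to 30.6 to 58.7 CPM. CPM carry no correction for gene length.

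Of 11 tested intermediate filament genes, 2 fell and 3 rose, near the shares of 20.4% lower and 21.8% higher over all tested genes. Beside Gfap, Vim, the filament of radial precursors, fell from 2558 ± 30.6 to 1832 ± 305 CPM (log2 fold change -0.48, SE 0.15). The call of Vim was lost without WT line 3, WT line 8, WT line 19 or KO line 13. Ina, a neuronal filament, rose from 1 to 3 counts per WT library (0.105 ± 0.049 CPM) to 1.48 ± 0.517 CPM, and it passed the filter through the libraries labelled KO alone. The nuclear lamins Lmnb1 (log2 fold change 0.57) and Lmnb2 (0.40) rose as well, the latter losing its call without WT line 3 or KO line 13. Of 15 tested genes of folate metabolism, Aldh1l1 and its mitochondrial relative Aldh1l2 fell (-0.67, SE 0.15) and 6 rose, led by Tyms, thymidylate synthase (0.77, SE 0.12), and Shmt1 (0.42, SE 0.10).

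Markers of other cell types moved beside the astrocyte markers, in a fit where 20.4% of all tested genes fell and 21.8% rose. Oligodendrocyte lineage markers (14 genes, 11 tested) rose in 7 and fell in 1, and summed to 764 to 825 CPM of library total in WT and 1139 to 1412 CPM in the libraries labelled KO. Pdgfra rose from 2.31 ± 1.24 to 39 ± 1.46 CPM, Gpr17 from 0 to 2 counts per WT library to 2.62 CPM in each library labelled KO, through which alone it passed the filter. Cnp fell (log2 fold change -0.47), a call lost when any library but KO line 16 was left out. Of 14 radial glia markers, Nr2e1 rose (log2 fold change 0.64) and Slc1a3, Vim and Ptprz1 (-0.39) fell, but Ptprz1 did not pass without WT line 3, WT line 8, WT line 19, KO line 13 or KO line 16. Without WT line 19 and KO line 3, 4 radial glia markers rose and 3 fell, where 25.9% of all tested genes rose and 28.3% fell. Of 11 tested neuron markers, which summed to 1019 to 1208 CPM in WT and 1178 to 1684 CPM in the libraries labelled KO, Dcx (4.06), Snap25 (2.60), Elavl3 (0.54) and Mtap2 (0.51) rose and Gad1 (-2.11) and Gad2 (-4.23) fell. Mtap2 made most of the sum, at 767 to 1000 CPM in WT and 1060 to 1537 CPM in the libraries labelled KO. The other neuron markers summed to 208 to 252 and 113 to 147 CPM. Gad2 alone made most of that second difference, at 87.2 to 157 CPM in WT and 4.97 to 6.61 CPM in the libraries labelled KO. It is therefore not a fall of the other neuron markers as a group. The call of Elavl3 was lost without WT line 8, WT line 19, KO line 13 or KO line 16, and that of Mtap2 without WT line 3, WT line 8, WT line 19 or KO line 13, or with WT line 19 and KO line 3 both left out. Microglial markers summed to 23.8 to 25 CPM in WT and 13.8 to 17.1 CPM in the libraries labelled KO, while Tmem119, C1qa, C1qb, C1qc and Trem2 had 0 counts in all 6 libraries. Endothelial markers summed to 16.2 to 20.9 and 15.4 to 17.6 CPM. Fibroblast and pericyte markers summed to 15.2 CPM in the WT libraries and 53.3 to 88.4 CPM in the libraries labelled KO. Pdgfra, which is on this list too, made much of that rise, at 1.11 to 3.58 CPM in WT and 37.8 to 40.6 CPM in the libraries labelled KO. Acta2, also on it, was highest in KO line 3, at 20.7 CPM against 4.48 and 6.35 CPM in KO lines 13 and 16. Ependymal markers summed to 18.6 to 21.3 and 15.9 to 20.5 CPM, and choroid plexus markers to 0.709 to 2.57 and 1.97 to 7.58 CPM. The part of these other cell types in the levels of the 10 astrocyte markers was not tested.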

How the data were processed

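RNA from nuclear fractions of 6 cultures was sequenced, 3 per genotype. Per the file headers, each of the deposited files holds the authors' read counts of 1 library by gene symbol. They are whole numbers with differing totals and carry no normalization. The submitters' processing notes list cutadapt 1.14, STAR, HTSeq 0.7.2 and DESeq2 with the mm10 build. Neither their roles nor the annotation or strand setting is stated there, and reads of overlapping genes on opposite strands cannot be told apart. Libraries were grouped by the genotype in their titles.

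The test was that of edgeR 4.0.16 (R 4.3.3), with filterByExpr, TMM scaling, a robust quasi-likelihood fit over the 6 libraries with 4 residual degrees of freedom, two-sided p-values adjusted by Benjamini-Hochberg over 13925 genes, and a threshold of 0.05. SEs and 95% intervals were derived from the F statistic and rest on the spread between lines. Whether a line stands for 1 animal is not given, so p-values measure only the spread between these lines. The code was tested on simulated data with 200 changed genes, far fewer than passed here. The edgeR fit recovered 32.8% of 1.5-fold, 77.6% of 2-fold and 93.9% of 4-fold changes, and 6.21% of its calls were false. A gene that did not pass may therefore still differ by a small fold. Positions and exon lengths came from GENCODE mouse release 21 (GRCm38). Of 316 symbols used, 312 matched a row directly and 4 through a synonym.

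The 10 markers and all gene lists were chosen with earlier results of these data known, so no list was tested as a set. The text names the 10 markers, Fmr1, and of each wider list the 2 genes with the smallest p in each direction, or all where 5 or fewer passed; a few genes under this rule are not reported here. Alternatives were other size factors (DESeq2 1.42.0, upper quartile, library size), other filters, DESeq2's Wald test, limma-voom (limma 3.58.1) in its plain and its sample-weighted form, the threshold at 0.10, Y-linked expression as a covariate, and fits lacking 1 library or both WT line 19 and KO line 3.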

Additional observations from a re-analysis of the deposited data

How the results depend on the processing

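Over 17 alternatives the 10 marker genes gave 169 values, of which 158 kept their direction and their side of the threshold. S100b had no value under a filter of 1 CPM in 3 libraries. Agt, Clu, Apoe, Cd44, Gja1 and Gfap remained lower and past the threshold in every alternative, with log2 fold changes when 1 library was left out of -5.55 to -5.03, -3.89 to -3.45, -1.51 to -1.18, -2.91 to -2.73, -1.44 to -1.34 and -3.36 to -2.71. The call of Aldh1l1 was lost with no filter on low counts (-1.38, adjusted p = 0.0898), in the sample-weighted limma-voom fit (-1.06, adjusted p = 0.0638) and without KO line 3 (-1.21), and its left-out range was -1.64 to -0.78 (adjusted p over all alternatives 0.000397 to 0.202). Slc1a2 passed the threshold, at -0.62, with DESeq2 size factors, upper-quartile factors, the DESeq2 Wald test, the threshold of 0.10 and the Y-linked covariate, at -0.63 with library size alone, and at -0.85 without WT line 8 (left-out range -0.85 to -0.39). S100b turned to 0.09 without WT line 8 (left-out range -0.70 to 0.09), and Aqp4 stayed between 0.06 and 0.50. Fmr1 turned to 0.04 without KO line 13 and 0.14 without KO line 16, in a left-out range of -0.58 to 0.14, and passed as lower without KO line 3 (-0.58) and without WT line 19 and KO line 3 (-0.53). The number of all tested genes that rose was 1994 without WT line 3 against 3040, in a left-out range of 1994 to 3666. Without WT line 19 and KO line 3 together, 2 connexin genes fell rather than 1. The cause of these changes was not tested. No paired analysis was possible because the genotypes share only 1 line number. Among 82 other named genes, 1288 of 1386 values kept direction and side. Depth limits Aqp4 and S100b most, at 10 to 32 counts per library, and Agt in the libraries labelled KO, at 4 to 8.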
